A study of Mus musculus with 7 samples.

Results

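The regions described here were the distal H3K27ac peaks of chondrocyte replicate 1 that had no H3K4me2 peak over them in the same cell type. Of 25580 replicate 1 peaks on chromosomes 1 to 19 and X, 2513 overlapped no H3K4me2 peak. Of these, 387 had an edge at most 1 kb from a protein-coding gene's transcription start site (TSS) and were set aside as promoters. Another 226 had their midpoint more than 200 kb from a TSS. The remaining 1900 peaks are called H3K4me2-negative peaks here (negative peaks for short), and the 12223 replicate 1 peaks that met the same distance limits and overlapped an H3K4me2 peak are called H3K4me2-positive or positive peaks. A negative peak is one for which no H3K4me2 peak was listed. It is not a measurement of zero methylation, since the lists hold only called peaks and no read numbers.

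The study mapped active chromatin by ChIP-Seq in search of enhancers that control Sox9, a transcription factor needed for cartilage formation. Peak lists of 6 of its 7 samples were analyzed. Primary chondrocytes from rib cartilage of newborn mice, used within 2 passages, gave 2 H3K27ac libraries and 1 H3K4me2 library, with no genotype stated in the labels, and primary dermal fibroblasts from newborn dorsal skin gave 1 H3K27ac library as the negative control. A separate pair of rib chondrocyte H3K27ac libraries came from WT mice and from E160(delta/delta);E308(delta/delta) mice, in which 2 Sox9 enhancers were removed from both alleles by genome editing. Each of these groups other than the chondrocyte H3K27ac libraries had 1 library, so none of the comparisons between groups has a replicate check, no p-value is given, and every interval below is an exact binomial (Clopper-Pearson) 95% interval that treats peaks as independent and covers counting error only. The numbers of mice behind the libraries were not given in the sources used here, and the depth of the libraries is unknown.

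The cell type labels were checked with lists of marker gene promoters. Of 14 chondrocyte marker promoters, 9 carried a replicate 1 peak, 11 an H3K4me2 peak, 12 a WT peak and 1, that of Sox9, a fibroblast peak. The replicate 1 list had no peak at the promoters of Col2a1 and Sox9, although the paper describes strong chondrocyte signal there in its profiles. Of 11 fibroblast marker promoters, 3 carried a replicate 1 peak (Col1a1, Col1a2 and Col3a1), 9 a WT peak, 9 an H3K4me2 peak and 7 a fibroblast peak. The fibroblast list had no peak at the promoters of Col1a1, Col1a2, Col3a1 and Prrx1, although the paper describes fibroblast peaks at Col1a1. None of the 5 skeletal muscle or 4 blood and endothelium promoters carried an H3K27ac peak in replicate 1, WT or fibroblasts. The part that fibroblast-like cells in the chondrocyte preparations might have in the values below was not tested.

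H3K27ac is an acetylation of histone H3 that marks active promoters and active enhancers. H3K4me2 is a methylation that covers both kinds of element whether they are active or only accessible, so active enhancers usually carry both marks. Around highly active genes H3K27ac can form broad domains that extend from the promoter into the gene body.

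The central 300 bases of 9 H3K4me2-negative peaks are printed to show the sequences that the results turn on. All were read from the plus strand of the mm9 genome, 5′ to 3′, and capitals mark CpG dinucleotides, whose density separates CpG-rich start sites from most distal elements. The first set holds the highest-scoring peaks that also had a WT peak. These lay at the start of the long noncoding RNA gene 1810058I24Rik, with Slc13a4 as the nearest protein-coding gene (chr6:35203783-35204082), in an intron of Rassf1 (chr9:107457643-107457942) and in an intron of Phldb2, nearest to the TSS of Abhd10 (chr16:45843454-45843753). A peak near Cyp24a1 that scored higher is left out because its center lay in an untranslated region of Pfdn4.
1810058I24Rik: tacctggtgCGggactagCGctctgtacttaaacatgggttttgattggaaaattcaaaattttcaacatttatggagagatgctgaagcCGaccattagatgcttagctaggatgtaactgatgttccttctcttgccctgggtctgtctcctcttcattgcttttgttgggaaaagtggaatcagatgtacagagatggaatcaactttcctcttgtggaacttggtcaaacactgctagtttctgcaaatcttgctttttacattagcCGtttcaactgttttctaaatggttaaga
Rassf1: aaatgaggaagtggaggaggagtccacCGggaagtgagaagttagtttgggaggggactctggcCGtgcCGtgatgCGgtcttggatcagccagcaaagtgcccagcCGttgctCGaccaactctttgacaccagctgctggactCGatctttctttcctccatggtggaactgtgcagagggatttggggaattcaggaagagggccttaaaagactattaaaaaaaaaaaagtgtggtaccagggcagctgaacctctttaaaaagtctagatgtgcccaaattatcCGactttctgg
Phldb2: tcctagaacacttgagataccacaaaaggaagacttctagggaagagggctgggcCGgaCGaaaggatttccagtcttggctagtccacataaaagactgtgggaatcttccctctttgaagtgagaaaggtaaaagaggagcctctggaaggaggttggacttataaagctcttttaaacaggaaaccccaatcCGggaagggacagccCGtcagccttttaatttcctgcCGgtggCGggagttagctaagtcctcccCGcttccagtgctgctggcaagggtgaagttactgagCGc

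The second set holds the highest-scoring peaks that had no peak in WT, deletion or fibroblast cells. They lay nearest to Moxd1 (chr10:23948123-23948422), Slit1 (chr19:41758556-41758855) and Arhgap24 (chr5:102735246-102735545). Their central windows held 5, 1 and 0 CpG dinucleotides, against 4, 8 and 8 in the first set.
Moxd1: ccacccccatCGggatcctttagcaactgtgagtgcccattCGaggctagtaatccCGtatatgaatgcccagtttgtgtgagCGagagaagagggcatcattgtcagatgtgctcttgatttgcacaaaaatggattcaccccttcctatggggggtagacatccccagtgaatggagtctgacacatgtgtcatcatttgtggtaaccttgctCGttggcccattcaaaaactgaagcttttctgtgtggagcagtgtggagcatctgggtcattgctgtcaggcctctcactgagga
Slit1: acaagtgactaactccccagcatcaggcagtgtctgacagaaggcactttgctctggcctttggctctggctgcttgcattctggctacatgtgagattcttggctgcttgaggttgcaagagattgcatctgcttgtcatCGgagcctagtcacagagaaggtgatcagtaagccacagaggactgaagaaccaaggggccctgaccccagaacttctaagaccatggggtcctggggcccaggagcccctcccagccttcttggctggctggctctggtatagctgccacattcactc
Arhgap24: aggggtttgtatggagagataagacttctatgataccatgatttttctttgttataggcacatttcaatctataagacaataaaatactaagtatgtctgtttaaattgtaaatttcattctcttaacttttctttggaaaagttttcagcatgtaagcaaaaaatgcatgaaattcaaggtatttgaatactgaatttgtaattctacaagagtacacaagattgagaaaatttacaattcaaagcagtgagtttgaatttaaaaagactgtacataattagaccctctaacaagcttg

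The third set holds the highest-scoring peaks near cartilage matrix genes. They lay upstream of Col2a1, which encodes the main collagen of cartilage (chr15:97857259-97857558), of Acan, which encodes aggrecan (chr7:86166616-86166915), and of Col27a1, a fibrillar collagen of cartilage (chr4:62865532-62865831). A run of CA repeats crosses the Col2a1 window.
Col2a1: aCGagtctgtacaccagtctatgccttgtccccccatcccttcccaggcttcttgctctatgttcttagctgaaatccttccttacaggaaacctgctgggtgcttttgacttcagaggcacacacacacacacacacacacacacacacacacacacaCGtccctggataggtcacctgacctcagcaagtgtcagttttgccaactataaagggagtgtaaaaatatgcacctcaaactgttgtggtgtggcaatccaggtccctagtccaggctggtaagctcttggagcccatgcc
Acan: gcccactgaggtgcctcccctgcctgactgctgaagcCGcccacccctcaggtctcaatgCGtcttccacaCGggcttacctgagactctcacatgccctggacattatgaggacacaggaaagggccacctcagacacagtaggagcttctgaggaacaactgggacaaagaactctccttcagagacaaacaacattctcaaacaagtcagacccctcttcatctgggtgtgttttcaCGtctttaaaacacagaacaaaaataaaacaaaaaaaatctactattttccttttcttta
Col27a1: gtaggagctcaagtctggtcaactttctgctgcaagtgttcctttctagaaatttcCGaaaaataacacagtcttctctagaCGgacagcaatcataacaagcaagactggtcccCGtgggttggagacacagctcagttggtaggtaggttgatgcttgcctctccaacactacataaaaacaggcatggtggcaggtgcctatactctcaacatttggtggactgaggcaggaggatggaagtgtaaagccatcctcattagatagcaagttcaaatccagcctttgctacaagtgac

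The H3K4me2-negative peaks were weak and narrow within the replicate 1 list. Their median score was 67.7 (lowest 50.01, highest 768), in a list that starts at 50, and the median of the H3K4me2-positive peaks was 103. Ranked in the whole list, the median negative peak stood at the top 78.1% and the median positive peak at the top 56.7%. In score classes of 20% each, from the highest to the lowest, 38, 117, 309, 550 and 886 negative peaks were found. The share of distal peaks that lacked H3K4me2 thus ran from 2.45% in the highest class to 24% in the lowest. The median width was 604.5 bp (178 to 7535 bp) against 835 bp. The peaks were defined from this list, so these values describe them and are not a test.

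Most negative peaks lay near an H3K4me2 peak. The median distance, edge to edge, was 3.71 kb, the lower quartile 990 bp and the upper quartile 10.5 kb. For 477 peaks (25.1%) it was at most 1 kb, and 2 peaks, near Rbpj and Mmp12, touched an H3K4me2 peak without overlapping it. An H3K4me2 peak stood within 5 kb on both sides of 234 peaks (12.3%) and on 1 side of 852 (44.8%). The other 814 (42.8%) had none within 5 kb. The largest distance was 2.97 Mb, at a peak on chromosome X near 4932411N23Rik. At the limits of the definition, the nearest peak inside 200 kb lay 199.662 kb from the TSS of Gm17394 and the nearest outside lay 201.522 kb from that of Elmo1. The edge nearest to a TSS was 1003 bp away in a peak of Ccnb1ip1 that was kept and 948 bp away in a peak of Plekhg4 that was set aside.

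**Figure D1:**
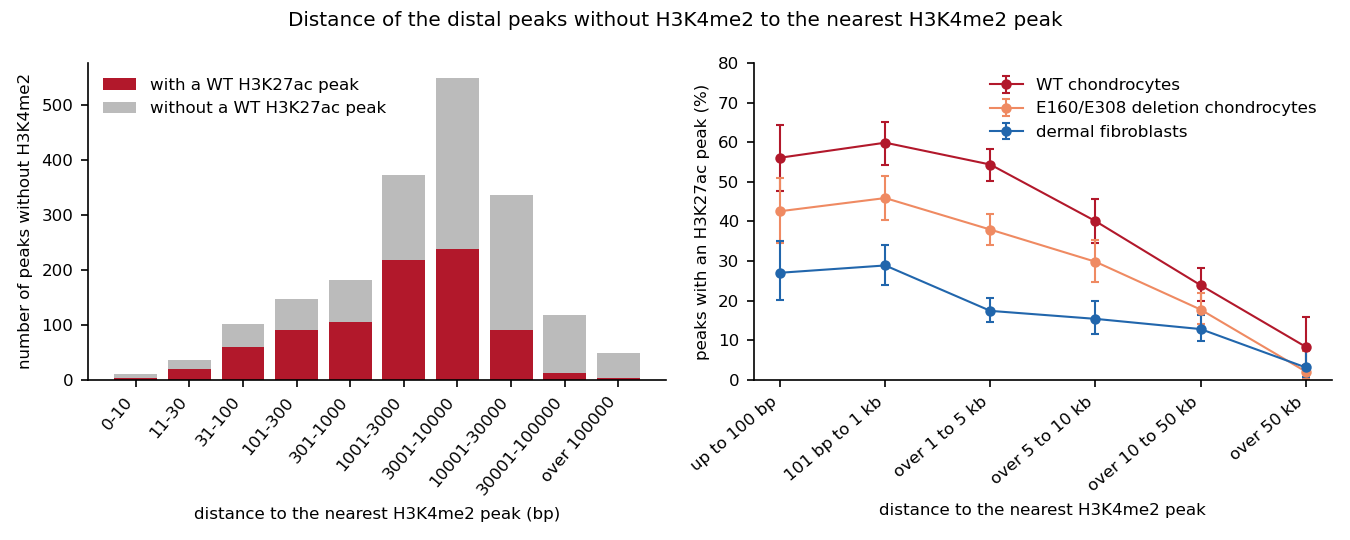
The left panel counts the 1900 H3K4me2-negative peaks by their distance in bp to the nearest H3K4me2 peak, with red bars for peaks that had a WT H3K27ac peak and gray for those that did not. The right panel gives the percentage with a peak in WT, deletion and fibroblast cells in each distance class, with exact binomial 95% intervals as bars; the WT share was between 54.4% and 59.9% up to 5 kb and was 8.33% beyond 50 kb.

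Fewer negative than positive peaks recurred in the other mm9 H3K27ac lists, which the definition did not use. In WT chondrocytes, 841 of 1900 negative peaks (44.3%, 95% interval 42.0–46.5%) overlapped a peak by at least 1 bp, against 66.9% (66.0–67.7%) of positive peaks. The background was 75.4% of all replicate 1 peaks and 63.8% of the distal ones. In E160/E308 deletion chondrocytes the shares were 32.2% (30.1–34.4%) and 51.7%, with backgrounds of 64.6% and 49.1%. Dermal fibroblasts had a peak at 18.1% (16.4–19.9%) of negative and 32.1% of positive peaks, with backgrounds of 51.7% and 30.2%. Nearly all peaks seen in the deletion list were also in WT, 610 of 612 negative and 6275 of 6318 positive peaks. A total of 228 negative peaks (12%) were present in all 3 lists, against 25.7% of positive and 46.4% of all replicate 1 peaks, and 997 (52.5%, 50.2–54.7%) in none of them, against 29.6% of positive peaks.

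The differences were smaller when positive peaks were weighted to the scores and widths of the negative peaks. With weights from the score classes, their WT share was 55.7%, their deletion share 39.1% and their fibroblast share 23.8%. Weighted to the width classes, the shares were 59.5%, 44.1% and 28.5%. With score and width classes together they were 57.4%, 41.5% and 24.2%, all above the intervals of the negative peaks. The smallest of these joint classes held 1 positive peak. Among the highest-scoring 20% of the list, 35 of 38 negative peaks (92.1%) had a WT peak, close to the 95.1% of positive peaks, and 29 (76.3%, 59.8–88.6%) a fibroblast peak, against 63.7%. The lower shares thus did not hold in every class. Among the lowest-scoring 20%, 30.7% had a WT peak, against 44.7%.

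Width separated the supported from the unsupported negative peaks. Of those up to 500 bp wide, 19.5% had a WT peak, and the share was 41.0% up to 1 kb, 75.4% up to 2 kb and 92.7% up to 3 kb. Of the wider peaks, 43 of 44 up to 4 kb and 37 of 38 above 4 kb had one. The gap to positive peaks closed over the same range, since positive peaks stood at 37.6%, 61.1%, 82.2% and 94.1%. Fibroblast support was lower than in positive peaks in every class, 10.7% against 17.4% in the narrowest and 47.4% (30.98–64.2%) against 60.4% (51.6–68.8%) in the widest, although the intervals overlapped above 3 kb. A wider peak also meets another peak more easily, so values in a width class are the fairer comparison.

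**Figure D2:**
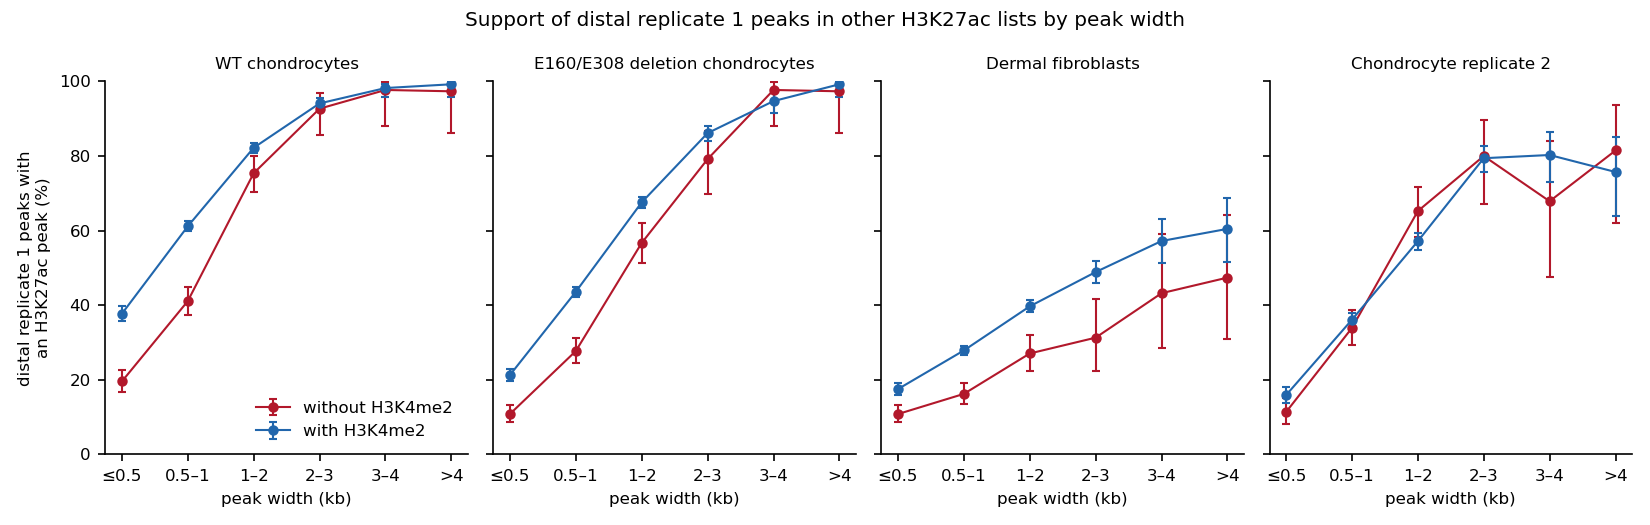
Percentage of distal replicate 1 peaks with an H3K27ac peak in WT, deletion, fibroblast and replicate 2 lists, by peak width in kb, with red points for H3K4me2-negative and blue points for H3K4me2-positive peaks and exact binomial 95% intervals as bars. In the first 2 panels red lies under blue for narrow peaks and the intervals meet above 2 kb, in fibroblasts it lies lower throughout, and in replicate 2 the curves run together.

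Support was lower far from H3K4me2 and in sequence of low GC content. A WT peak lay over 59.9% (54.4–65.2%) of negative peaks over 100 bp and up to 1 kb from an H3K4me2 peak, over 40.1% at 5 to 10 kb, over 23.9% at 10 to 50 kb and over 8.33% (3.67–15.8%) of the 96 peaks beyond 50 kb. The plot of support by distance shows the same order in deletion and fibroblast cells. The distant peaks were also narrow, with a median width of 424.5 bp beyond 50 kb against 802 bp at 1 to 5 kb. Of the 96 beyond 50 kb, 28 (29.2%) consisted mostly of sequence repeated elsewhere in mm9, and 21 lay on chromosome X. At 1 to 5 kb it was 5 and 16 of 609. By GC content of the central 300 bases, WT support was 16.1% (11.9–21.1%) at up to 35% GC and 70.2% (65.4–74.8%) above 50% GC. Positive peaks ran from 40.9% to 82.5% over the same classes. The median GC content was 47.0% in negative peaks with a WT peak, almost the 47.3% of positive peaks with one, and 41.0% in negative peaks with none in the WT, deletion and fibroblast lists. Supported negative peaks were also wider (median 1003 bp against 478 bp for those in none of the 3 lists). The separate parts of GC content, width, score, distance, repeated sequence and chromosome X were not tested.

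Replicate 2 gave a different picture. Its list carries GRCm38 positions, so peaks were matched by their signed offset from the TSS of the same gene within 1 kb, each in its own build, for peaks within 50 kb of a gene placed in both annotations. Of 1062 negative peaks that could be matched, 392 (36.9%, 34.0–39.9%) had a replicate 2 peak, against 43.7% (42.5–44.97%) of positive peaks. The background was 64% of all replicate 1 peaks and 42.8% of the distal ones. Weighted to the score classes of the negative peaks, the share of positive peaks was 32.5%, weighted to the width classes 37.8%, and with both together 34.9%. Negative peaks thus recurred in the second library of their own group about as often as positive peaks of like score and width.

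On the same 1062 peaks, WT support was 48.3% against 60.3% for positive peaks of like score and width. Deletion support was 36.2% against 44.7%, and fibroblast support 19.6% against 26.9%. At like score and width the lists of the 3 other groups were thus lower over negative peaks, and the replicate 2 list was not. Support in those 3 lists was an overlap of at least 1 bp. In replicate 2 it was a midpoint within 1 kb of the same offset. The part of this difference in rule was not tested. By score class, from the highest-scoring 20% of replicate 1 to the lowest, a replicate 2 peak lay over 82.6%, 71.1%, 53.4%, 41.0% and 20.1% of negative peaks, the last class holding 467 of the 1062. Positive peaks stood at 75.9%, 62.2%, 44.2%, 31.5% and 21.9%, lower in the first 4 classes and higher in the last. By width class, from up to 500 bp to above 4 kb, negative peaks stood at 11.3%, 33.8%, 65.2%, 80%, 67.9% and 81.5%. Positive peaks stood at 15.8%, 36.1%, 57.1%, 79.4%, 80.3% and 75.7%, higher in 3 of the 6 classes. Presence in replicate 2 and in WT coincided: 331 of 513 negative peaks with a WT peak (64.5%) had one in replicate 2, against 61 of 549 without (11.1%). Positive peaks had one in 58.2% with and 11.95% without a WT peak. A total of 488 negative peaks (46.0%) were in neither list, against 27.6% of positive peaks.

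The absence of H3K4me2 was most frequent in the narrowest and the widest peaks. In replicate 1, the share of distal peaks without H3K4me2 was 23.4% (21.9–24.9%) up to 500 bp, 8.35% (6.81–10.1%) at 2 to 3 kb and 22.1% (16.1–29.04%) above 4 kb. The same shape was present in the lists that did not define the peaks. In WT cells the shares were 36.4%, 12.3% (10.5–14.3%) and 26.4% (21.1–32.3%), and in deletion cells the share was 13.6% at 1 to 2 kb and 30.3% (21.5–40.4%) above 4 kb. It was present at promoters as well, where H3K4me2 is nearly always found. Of WT promoter peaks, 1.39% lacked H3K4me2 at 2 to 3 kb and 25.8% (18.5–34.1%) of the 132 peaks above 6 kb did. In replicate 1 the corresponding values were 2.50% and 27.8% (14.2–45.2%) of 36 peaks. Of the same 132 WT promoter peaks, 16.7% (10.7–24.1%) had no replicate 1 peak and 20.5% (13.9–28.3%) no fibroblast peak, against 3.62% and 3.25% at 2 to 3 kb. None lacked a deletion peak, which allows a share of up to 2.27%, taken here and below as 3 counts of the total. The H3K4me2, replicate 1 and fibroblast lists were deposited with a score only, in the layout of earlier MACS releases, and the WT and deletion lists in that of MACS2. The part of peak calling in these shares was not tested.

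**Figure D3:**
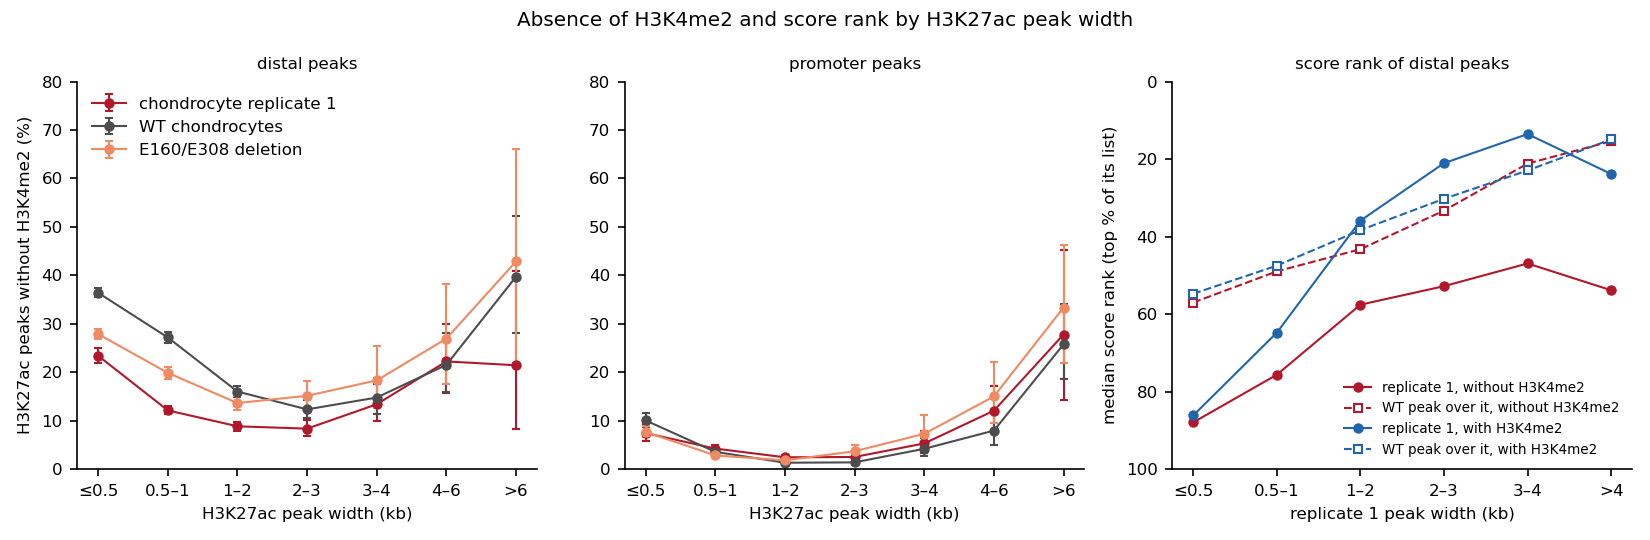
The left and middle panels give the percentage of H3K27ac peaks without H3K4me2 by peak width in kb, at distal sites and at promoters, in replicate 1, WT and deletion lists, with exact binomial 95% intervals as bars. The right panel gives the median score rank (0 is the top of the list) of distal replicate 1 peaks and of the WT peaks over them; up to 500 bp the replicate 1 medians are close (top 87.9% for negative and 86.1% for positive peaks), and above 4 kb they are 53.9% and 23.9%, where the WT medians are 15.4% and 14.9%.

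The wide negative peaks were weak in replicate 1 and strong in WT. The 38 negative peaks above 4 kb had a median score of 110 and a median rank at the top 53.9%, against 239 and the top 23.9% for 134 positive peaks of that width. The WT peaks over them ranked at the top 15.4%, close to the 14.9% over positive peaks, and had a median width of 5155 bp against 3984 bp. WT peaks covered a median of 92.5% of their length. Of the 38, 37 had a WT peak, 37 a deletion peak and 18 a fibroblast peak. They lay a median of 5075 bp from the nearest H3K4me2 peak, and 32 of them were inside a gene, 27 of these in a gene whose promoter had a WT peak.

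The 5 widest of these peaks lay in introns. A peak of 7535 bp, chr15:90481859-90489393, lay 24.2 kb into Cpne8, which encodes a copine, a calcium-dependent membrane-binding protein. One of 7294 bp lay in 1810013L24Rik, chr16:8845759-8853052. In Mbnl2, which encodes a muscleblind-like splicing regulator, a peak of 7064 bp, chr14:120694220-120701283, had a score of only 96.8 and was matched by a WT peak of 6206 bp at the top 15.7%. A peak of 6947 bp lay 100.6 kb into Thada, and one of 6376 bp in Stk4, a kinase of the Hippo pathway. All 5 had WT and deletion peaks, and those of 1810013L24Rik and Mbnl2 also had fibroblast peaks. The WT peaks over those of 1810013L24Rik, Thada and Stk4 ranked at the top 19.7%, 15.4% and 15.1%. The WT peak over the Cpne8 peak was only 2234 bp wide and ranked at the top 73.6%. None of the 5 lay within 1 kb of an annotated transcript start.

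Other negative peaks above 4 kb, named after their values were seen, lay in Ctnnb1 (β-catenin), Anxa2 (annexin A2), Actn4 (α-actinin), Tpm1 (tropomyosin), Plec (plectin), Nfe2l2 (an oxidative stress regulator) and Csgalnact1, an enzyme of chondroitin sulfate synthesis. Each of these had WT and deletion peaks, and Ctnnb1, Actn4, Plec and Nfe2l2 also had fibroblast peaks. Their WT peaks ranked from the top 5.99% at Ctnnb1 to the top 83.3% at Csgalnact1, where the WT peak was 1064 bp wide. The exception among the 38 was Col27a1, where a peak of 4375 bp, 9.36 kb upstream of the TSS, chr4:62863494-62867868, had no peak in WT, deletion or fibroblast cells.

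The Col2a1 gene had no peak in either list that defined the negative peaks. Over its 29.1 kb no replicate 1 or H3K4me2 peak was listed, while 7 WT peaks covered 93.0% of it and 14 deletion peaks 69.7%. The paper describes strong chondrocyte ChIP-Seq signal at the Col2a1 promoter and over its gene body. The empty span is stated for the deposited lists only. Signal was not examined here, and the reason why no peak was listed was not tested. No fibroblast peak lay in it. Upstream, 3 negative peaks were present. The strongest, chr15:97855487-97859329, was 3843 bp wide, lay 22.3 kb upstream of the TSS with a score of 262 (top 21.0%), and had peaks in WT (3706 bp, top 21.2%) and deletion cells (top 29.5%). A second of 1630 bp lay 4.42 kb upstream, with WT and deletion peaks. Another of 475 bp, 15.2 kb upstream, had neither. An H3K4me2 peak stood between these last 2, at gaps of 3811 and 4515 bp, and the strongest peak was 4675 bp from another H3K4me2 peak farther upstream. The map of the locus shows this alternation.

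**Figure D4:**
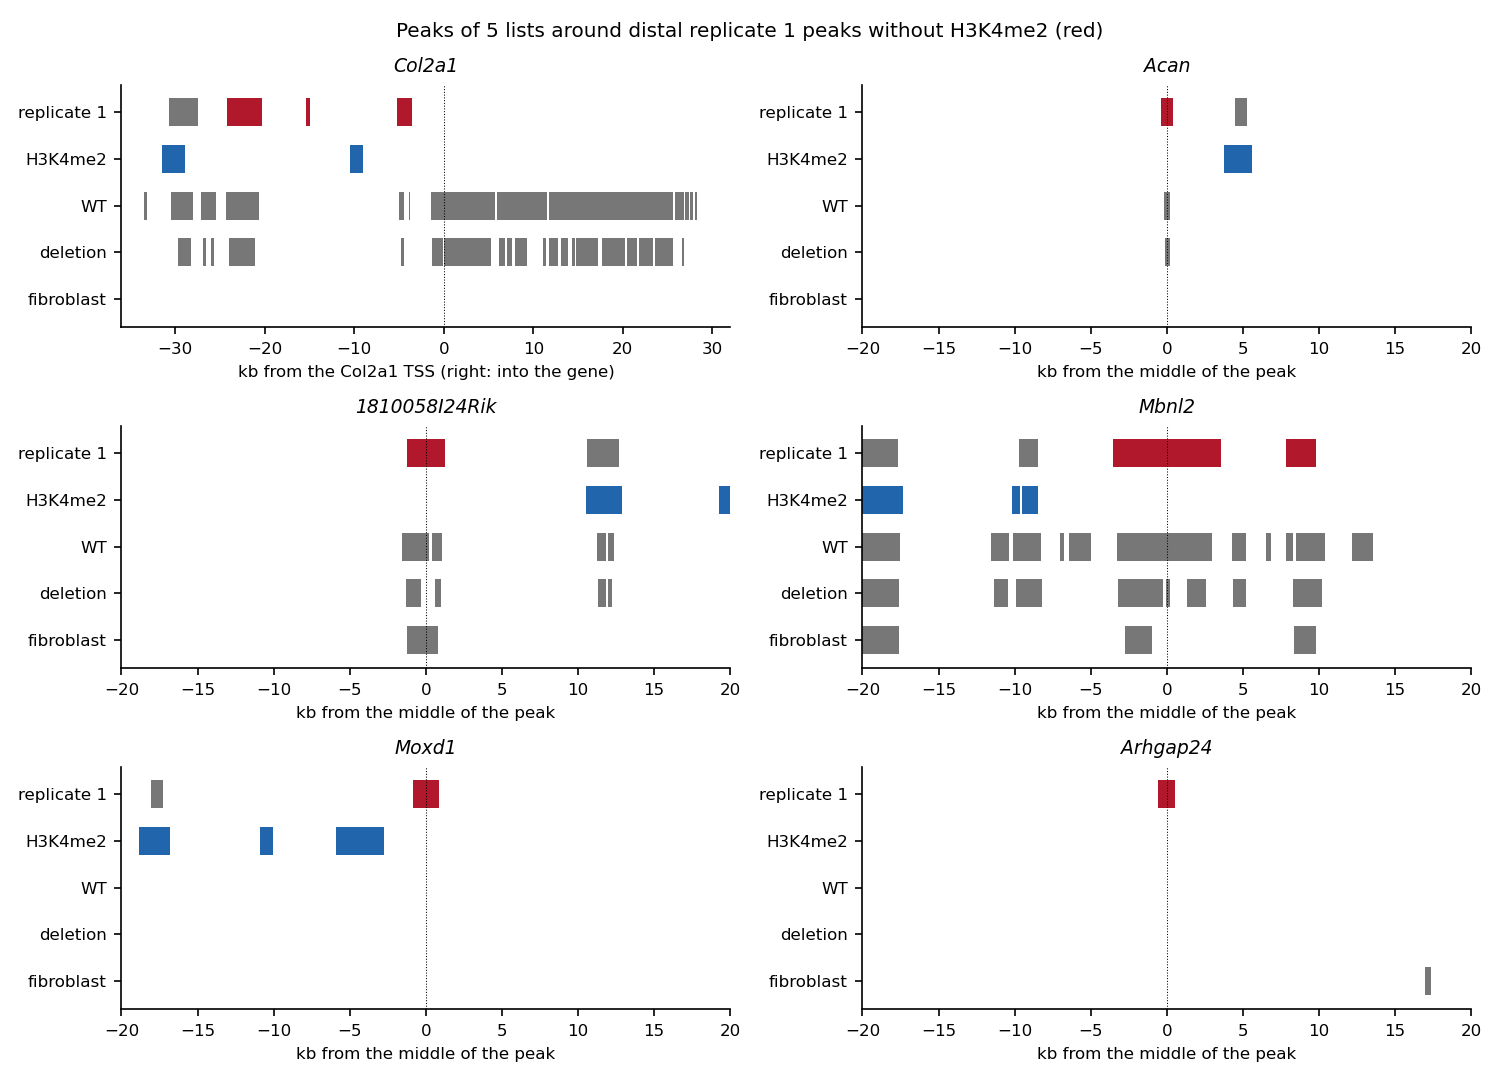
Positions of peaks in 5 lists around selected H3K4me2-negative peaks (red), with H3K4me2 peaks in blue and other H3K27ac peaks in gray. The Col2a1 panel is drawn in kb from its TSS and the others in kb from the middle of the peak; WT and deletion peaks fill the Col2a1 gene, where replicate 1 and H3K4me2 have none, and the Moxd1 and Arhgap24 peaks have no WT, deletion or fibroblast peak over them.

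Other cartilage genes had negative peaks of varied support. The Acan peak, chr7:86166351-86167179, was 829 bp wide and lay 31.6 kb upstream of the TSS with a score of 235 (top 24.4%), over the long noncoding RNA gene Gm16936. The WT peak over it was 373 bp wide and ranked at the top 89.3%, and the deletion peak also ranked at the top 89.3%. At Comp, which encodes a cartilage matrix glycoprotein, a peak of 1100 bp lay 1.97 kb upstream of the TSS and 110 bp from an H3K4me2 peak, and the WT peak of 3754 bp over it overlapped an H3K4me2 peak. A pair of neighboring peaks of 1689 and 2554 bp lay in Col9a1, a type IX collagen, 52.1 and 54.4 kb into the gene, under a single WT peak of 1913 bp. Single peaks with WT and deletion support lay 4.16 kb upstream of Cspg4, a chondroitin sulfate proteoglycan, and in an intron of Pth1r, the receptor for parathyroid hormone-related protein. The WT peak ranked at the top 37.8% at Cspg4, and at Pth1r it was 236 bp wide and at the top 93.7%. At Fgfr3, the growth-restraining FGF receptor of cartilage, peaks of 2492 and 734 bp lay 27.97 and 29.6 kb upstream, both with WT and deletion peaks.

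Several cartilage genes had negative peaks with no WT, deletion or fibroblast peak. These were 2 peaks upstream of Lect1 (chondromodulin), 3 near Prg4 (lubricin), 2 near Trps1 (a GATA-type repressor of chondrocyte maturation) and single peaks near Matn1 (matrilin), Col9a2, Fibin and Pax9. Of 3 peaks upstream of Col11a1, 1 had a WT peak. Their ranks in replicate 1 were low, between the top 75.04% for Lect1 and the top 98.7% for Col11a1.

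Counted by list, 12 of 24 chondrocyte matrix genes (50%) were the nearest gene of at least 1 negative peak, against 6.92% of all 22208 protein-coding gene symbols. For positive peaks the list stood at 79.2% against 25.9% of all genes. The 12 genes held 20 negative peaks, of which 8 had a WT peak, 7 a deletion peak and 0 a fibroblast peak, which allows a fibroblast share of up to 15%. Among all negative peaks 44.3% had a WT peak and 18.1% a fibroblast peak, and of 62 positive peaks nearest to the list's genes 41 had a WT peak and 5 a fibroblast peak. Of 24 chondrocyte regulators, 4 genes held 6 negative peaks, with 3 in WT, 3 in the deletion and 0 in fibroblasts, which allows up to 50%. Of 22 fibroblast genes, 4 (Col1a2, Col3a1, Col5a2 and Dcn) held 4 peaks, 2 with a WT peak and 2 with a fibroblast peak. The lists are short, and the length of the sequence nearest to each gene was not taken into account.

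Immediate early genes are induced within minutes of a stimulus. Of 16 such genes, Ier2, Klf4, Klf6 and Myc were nearest to 9 negative peaks, 9 with a WT peak, 8 with a deletion peak and 6 with a fibroblast peak. Among all negative peaks the shares were 44.3%, 32.2% and 18.1%. The 4 genes are 25% of the list, against 6.92% of all protein-coding gene symbols. Peaks were assigned by the nearest TSS only. Those of Klf4 lay 190 and 198 kb upstream, and Ier2 peaks at 23.1 and 23.7 kb lay inside Cacna1a, near its end. Of 48 positive peaks nearest to genes of this list, 37 had a WT peak and 21 a fibroblast peak, and the 9 negative peaks share 4 genes. A peak of 4180 bp lay at the 3′ end of Klf6, 8.83 kb from its TSS, 624 bp from an H3K4me2 peak. A pair downstream of Myc, 94.8 and 139.2 kb away, lay over the noncoding RNA gene Pvt1. The remaining lists were short, with a negative peak at 0 to 10% of their genes, beside 6.92% of all protein-coding gene symbols. The osteoblast list had 1 gene of 10 (Phex, 2 peaks with no support), skeletal muscle 1 of 10 (Tnnt3, with the peak inside Lsp1), housekeeping 1 of 12 (Hprt) and blood and endothelium 0 of 9, which allows up to 33.3%.

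**Figure D5:**
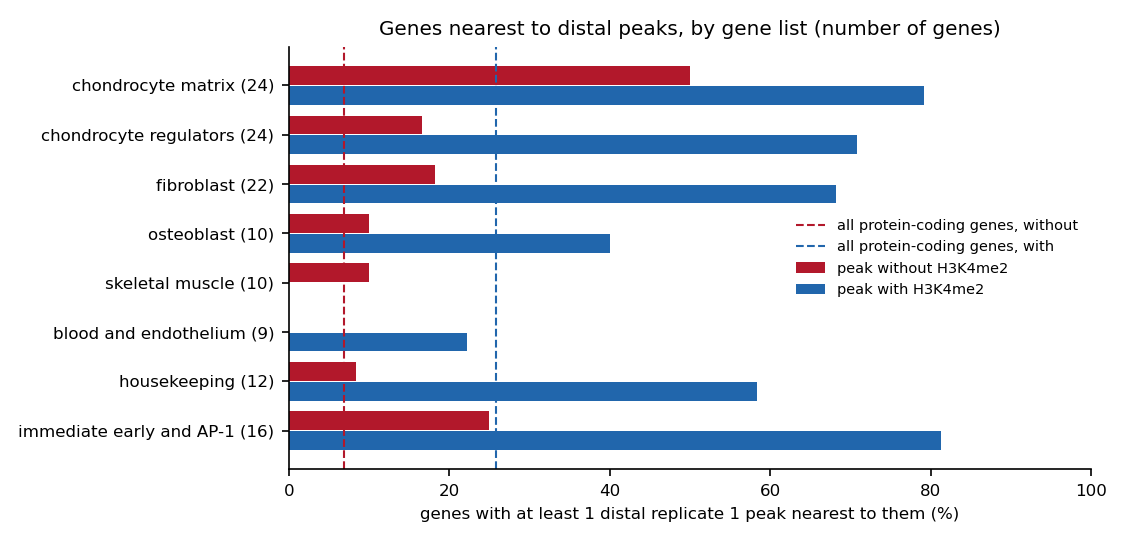
Percentage of the genes of each list that were the nearest protein-coding gene of at least 1 distal replicate 1 peak, red for H3K4me2-negative and blue for H3K4me2-positive peaks, with the number of genes in parentheses and dashed lines at the values of all protein-coding genes. Chondrocyte matrix genes reach 50% for negative peaks and 79.2% for positive peaks.

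The highest-scoring negative peaks were mostly not far from a start of some kind. Of the 10 highest, 10 had a WT peak, 10 a deletion peak and 9 a fibroblast peak, and 8 lay within 1 kb of an annotated transcript start other than the gene start that the definition used. Among all negative peaks 178 (9.37%, 8.10–10.8%) did, fewer than the 13.0% of positive peaks. The share fell with score in both sets, and the order differed between score classes. From the highest-scoring 20% of the list to the lowest, negative peaks stood at 39.5% (24.04–56.6%), 17.1%, 11.3%, 9.45% and 6.32%. Positive peaks stood at 24.3% (22.1–26.5%), 15.6%, 11.6%, 10.1% and 9.19%. Negative peaks were thus lower in the lowest class and higher in the top class, where the intervals overlapped. The highest-scoring negative peak, chr2:170336657-170337420, had a score of 768 (top 0.618%) and 74.0% GC. It lay in an untranslated region of Pfdn4, a prefoldin subunit, over the noncoding gene Gm16796 and nearest to Cyp24a1, 175 bp from an H3K4me2 peak, and its WT peak ranked at the top 0.162%. The next, chr6:35202667-35205197, at the start of 1810058I24Rik, had a score of 745, lay 9.25 kb from any H3K4me2 peak, and had WT, deletion and fibroblast peaks at the top 4.56%, 6.27% and 17.6%.

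Among the rest of the 10, peaks in Rassf1 (a tumor suppressor), Kdm2a (a histone demethylase), Aldoa (the glycolytic enzyme aldolase A) and Dlc1 lay 137, 14, 81 and 140 bp from an H3K4me2 peak. Those in Phldb2 and Fry lay 10.8 and 5.10 kb away. The Fry peak was 4990 bp wide, had a score of 471 (top 5.64%), and was the only one of the 10 without a fibroblast peak. Ptrh2 and Creb3l1, the remaining 2, lay 1.65 and 1.04 kb from H3K4me2.

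High scores did not always recur. The peak near Moxd1 (score 412, top 8.40%, chr10:23947438-23949107), the peak near Slit1 (score 347, top 12.6%, chr19:41757902-41759508) and the peak near Arhgap24 (score 279, top 18.96%, chr5:102734839-102735951) were the only 3 in the highest score class with no WT, deletion or fibroblast peak. They lay 1909, 8749 and 98086 bp from H3K4me2. The Arhgap24 window had a GC content of 28.7%. Of the 3 peaks farthest from H3K4me2 in the upper 25% of negative peaks by score, near Gm17714 and Vmn2r121 on chromosome X and Gpc6, none had a WT, deletion or fibroblast peak, and all consisted mostly of sequence that is repeated elsewhere in mm9.

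Several negative peaks covered named noncoding RNA genes, and these were chosen after their values were seen. Peaks lay over Meg3 (828 bp), Dleu2 (5158 bp, score 333), Pvt1, Airn, Nespas, Tsix and C430049B03Rik, the last 67.7 kb from Hprt. Airn, Meg3, Nespas and Tsix belong to imprinted loci or to the X inactivation center. All 8 peaks had WT and deletion peaks and 6 had fibroblast peaks, beside 44.3%, 32.2% and 18.1% of all negative peaks, and since they were chosen with their values known the counts describe these peaks only. The Meg3 WT peak ranked at the top 8.34% and the Dleu2 WT peak at the top 5.49%.

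Negative peaks lay in gene bodies slightly more often than positive peaks. Their midpoint was inside a protein-coding gene in 62.1% (59.9–64.3%) against 57.1% (56.2–58.0%), almost always in an intron (58.4% against 53.1%). The background was 62.6% of all replicate 1 peaks, promoter peaks included, and 57.8% of the distal ones. The share of negative peaks inside a gene was 57.2% up to 500 bp and 84.2% (68.7–94.0%) above 4 kb, and in positive peaks 51.2% and 75.4%. Of negative peaks inside a gene, 76.9% (74.4–79.3%) lay in a gene with a WT peak at its promoter, against 74.5% for positive peaks and a background of 74.8%. The nearest TSS was a median of 30.4 kb away, against 34.4 kb.

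The 1900 peaks were spread over 1537 nearest genes, and 1267 of these had a single one. Tbl1x, a corepressor subunit gene on chromosome X, had the most with 7, 5 of them with a WT peak and 1 with a fibroblast peak. Msi2, which encodes an RNA-binding protein, had 6, with 5 in WT and 0 in fibroblasts. Zmiz1, a transcriptional coregulator, and Ahdc1 had 4 each, and all 8 had both WT and deletion peaks. At Chst11, a chondroitin sulfotransferase of cartilage, 1 of 4 had a WT peak, and at Chrdl1, a BMP antagonist, 0 of 4. Gm17714 and Gm15319 had 5 each, all 10 in repeated sequence and none with a WT, deletion or fibroblast peak. The gene with the most negative peaks in its body besides Tbl1x was Gm20388 with 6, and Fry held 5, of which 4 had WT peaks.

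Repeated sequence and chromosome X were more frequent among negative peaks. At least 50% of the 32-base words of the central window occurred elsewhere in mm9 in 64 negative peaks (3.37%, 2.60–4.28%) against 0.622% (0.490–0.778%) of positive peaks. Of the 64, 6 had a peak in any of the other 3 lists, and 13 lay on chromosome X. Chromosome X held 92 negative peaks (4.84%) and 1.97% of positive peaks. The WT share was 45.6% with the repeated windows left out.

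Short motifs differed little between the sets. The letters TGTGGT, the core bound by RUNX factors, were in the central 300 bases of 20.8% of negative and 21.1% of positive peaks on either strand, and in 17.7% of all replicate 1 peaks. TGANTCA, bound by AP-1, was in 13.7%, 13.2% and 10.3%, and GGAATG, bound by TEAD factors, in 17.6%, 19.4% and 17.2%. AACAAT, bound by SOX factors, was in 15.6% (14.0–17.3%), 13.2% and 11.6%, and within negative peaks in 18.3% (15.9–20.8%) of those in none of the WT, deletion and fibroblast lists against 11.5% (9.45–13.9%) of those with a WT peak. The part of the lower GC content of the unsupported peaks in this difference was not tested. In the printed windows TGTGGT or its complement stood once each in Rassf1, Phldb2, Moxd1 and Col2a1, and the other 3 motifs were not found. A CpG-rich window, with at least 50% GC and a CpG ratio of at least 0.6, was found in 1.84% of negative and 5.11% of positive peaks. This order did not hold in every score class. From the highest-scoring 20% of the list to the lowest, the shares of negative peaks were 15.8% (6.02–31.3%), 7.69%, 3.88%, 0.909% and 0.339%. Positive peaks stood at 13.0%, 5.98%, 4.39%, 3.19% and 2.75%.

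Of the 841 negative peaks with a WT peak, 130 (15.5%, 13.1–18.1%) had one that itself overlapped an H3K4me2 peak. The definition of the peaks holds this share down. A WT peak that lay over more than 1 negative peak was counted once for each. Among peaks with a WT peak, that WT peak held another replicate 1 peak in 17.5% (15.0–20.2%) of negative and 14.0% (13.3–14.8%) of positive peaks. The WT peaks, counted this way, had a median rank of the top 44.0% against 41.2% and a median width of 1034 bp against 1088 bp. The medians of rank and width were thus close to those over positive peaks, but the upper part of the widths was not. The upper quartile of width was 2265 bp over negative and 1823 bp over positive peaks. Another replicate 1 peak stood within 5 kb of 39.7% (37.5–41.9%) of negative and 33.8% (32.9–34.6%) of positive peaks.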

How the data were processed

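The authors deposited 1 peak list per ChIP-Seq library. According to the submitters' processing notes and the methods of the study, fastp was used to clean the reads, Bowtie2 2.4.4 to map them to mm9, and MACS2 2.2.4, with the default q-value and an input control, to call the peaks. The chondrocyte replicate 1, H3K4me2 and fibroblast lists hold a position and a deposited score of 50 or more, in the layout of earlier MACS releases (score-only lists). The replicate 2, WT and deletion lists hold in addition the deposited fold enrichment, −log10 p and −log10 q of each peak, which were not used. Scores rank peaks within a list only. Replicate 2 is on GRCm38 and the other 5 lists are on mm9, and no coordinate was converted. Depth is unknown, and the input library was not analysed here.

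Protein-coding genes, transcripts and noncoding genes came from GENCODE vM1 on mm9, with 22350 coding genes, and GRCm38 gene starts from RefSeq, matched by symbol for 18086 genes. Peaks that overlapped by 1 bp or more were taken as shared. Positive peaks were weighted to the negative peaks by score class (20% of the list), width class or both. Repeated windows were found by looking up 32-base words, every 4 bases, in the whole of mm9. Overlaps were checked against bedtools 2.31.1, and overlaps, gaps and offset matches were tested on simulated lists. No test between groups was run. The members, gene lists and limits were chosen with earlier results of these data known. Peaks were named by rule: the 10 highest scores, the 5 widest, the 3 farthest from H3K4me2 in the upper 25% by score, genes with the most peaks, up to 20 peaks nearest to list genes, and those beside the limits; further list genes, wide peaks and noncoding RNA genes were named after their values were seen. Alternatives covered the overlap, score, window and distance limits, the supporting lists and the source library. The tools were Python 3.11.15, numba 0.67.0, pysam 0.24.0, matplotlib 3.10.9, scipy 1.17.1, pandas 2.3.3 and numpy 2.4.6.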

Additional observations from a re-analysis of the deposited data

Results flagged for a closer look

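Chromosome Y lies outside the chromosomes compared. Replicate 1 had 16 peaks there, of which 10 overlapped no H3K4me2 peak, and 1 of these 10 had a WT peak.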

How the results depend on the processing

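Negative peaks had a lower share than positive peaks in all 42 alternatives of the WT, deletion and fibroblast shares. Their share in gene bodies was higher in all 11 alternatives of it. These shares were not weighted by score or width, in which the negative peaks were lower. The settings also reuse many of the same peaks, so the counts are not independent checks. Of 70 alternative values, 36 moved beyond the interval or limit set for them. The number of peaks, 1900, was 8099 with a 50% reciprocal overlap with H3K4me2, 270 with the higher-scoring 50% of replicate 1, 6003 with the higher-scoring 50% of H3K4me2 and 5845 without replicate 1, with WT as the source. For the first 3 of these settings in turn, the WT share was 57.0%, 72.2% and 53.9%, the deletion share 41.6%, 60.7% and 39.7%, and the fibroblast share 26.3%, 41.5% and 21.7%, and the gene-body share was 58.7% and 65.2% in the first 2. With no H3K4me2 peak within 1 kb, the WT, deletion and fibroblast shares were 39.4%, 27.97% and 14.7%. With the start of every protein-coding transcript they were 42.0%, 29.6% and 16.0%, with a gene-body share of 59.5%. A 50% reciprocal support overlap gave 20.8%, 15.6% and 8.37%, and peaks of at least 500 bp gave 58.6%, 44.6% and 22.4%. Equal numbers of top peaks (19454) gave a WT share of 29.9% and a deletion share of 25.6%. The gene-body share was 64.4% within 100 kb and 58.0% without an upper distance. The replicate 2 share was 28.2% with a tolerance of 500 bp, 32.3% within 200 kb, 40.6% by edges and 41.0% for genes of the same span, below the 34.7%, 41.6%, 47.8% and 50.7% of positive peaks and above their 26.2%, 31.5%, 39.3% and 40.7% when weighted by score and width, the last 2 settings and the settings on repeated sequence, chromosome X and shared genes having been chosen after seeing the data. The cause of these shifts was not tested. No paired analysis was possible because only the chondrocyte H3K27ac group had 2 libraries and no test was run.

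The number of positions rests on single lists of unknown depth, so a missing peak means that none was called, not that the mark was absent. Weak negative peaks lie close to the score limit of the list. The offset match of replicate 2 loses peaks where the builds differ in length between a peak and its TSS.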
